A study of Mus musculus with 12 samples.

Results

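The comparison described here is that of HoxB8 cells carrying a truncated Asxl1 with the same cells carrying empty vectors, 6 of the 12 libraries of the study. HoxB8 cells are mouse bone marrow progenitors kept growing by a Hoxb8 that works only while estrogen is present. Cultures were kept in estrogen and stem cell factor, and in every group RNA was taken 24 h after the estrogen had been removed. Each population carried 2 vectors, pMIG and pMICH. In the Empty/Empty group both were empty, and in the Asxl1-MT2/Empty group pMIG held Asxl1-MT2, which the design text describes as a truncation of Asxl1, while pMICH was empty. Each group had 3 libraries, named A, B and C after their columns. The other 6 libraries came from cells whose pMICH held the T618I mutant of CSF3R (the G-CSF receptor, through which neutrophil growth is driven), with pMIG empty (Empty/T618I) or holding Asxl1-MT2 (Asxl1-MT2/T618I), again 3 each. All 4 groups therefore shared the Hoxb8 line, the estrogen removal and the pair of vectors.

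The labels do not say where the truncation lies, and the construct was overexpressed beside the cells' own Asxl1 rather than edited into it. They give neither the number of clones in the line nor the culture each library was taken from. Every p-value therefore describes only how much these libraries varied, and that variation may be technical. The sample titled Empty/Empty 3 carries the T618I vector in its genotype label. The column letters cannot be linked to title numbers, so that sample could not be traced to a column. Socs3, a feedback inhibitor that is induced by signalling from this receptor, was checked in its place. It stood at 13.8, 11.9 and 12.4 CPM (a gene's counts relative to its library's total) in the 3 Empty/Empty columns and at 165 ± 12.6 CPM in Empty/T618I (mean ± SD, n = 3), so all 3 columns headed Empty were far below the T618I group.

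Of 24411 gene symbols in the table, 11578 passed the filter on low counts and were tested, with 99.94% of all counts. ASXL1 is a chromatin protein that binds the deubiquitinase BAP1, and the complex removes ubiquitin from histone H2A, the mark that Polycomb repressive complex 1 places. Truncating ASXL1 mutations are common in clonal haematopoiesis and myeloid neoplasms. When estrogen is withdrawn from HoxB8 progenitors, they leave self-renewal and differentiate along the neutrophil path. GATA2 and GATA1 drive the mast cell, basophil, eosinophil, megakaryocyte and erythroid programmes, which progenitors of this kind carry at low level beside the neutrophil programme.

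The 6 libraries held 9393686 to 10004177 counts each, with 13222 to 13571 symbols detected, and scaling factors from the trimmed mean of M-values (TMM) between 1.01 and 1.03. The first principal component of these 6 libraries, with 38% of the variance, separated the 2 groups. The second, with 24.5%, set the letter C library of each group apart from the other 4. Markers matched the labelled cell type. The 12 granulocyte-monocyte progenitor markers summed to 35998 to 45117 CPM in Empty/Empty and 40098 to 44838 CPM in Asxl1-MT2/Empty, most of it Mpo, the myeloperoxidase of primary granules. B cell markers summed to less than 1 CPM in each library, as did T cell markers, and the haemoglobin genes Hba-a1 and Hbb-bs were at 0 in all 6.

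Asxl1 itself (chromosome 2, 153345830 to 153404007, mm10) was read at 116, 125 and 117 CPM in Empty/Empty and at 1833, 1678 and 1723 CPM in Asxl1-MT2/Empty. The 3 libraries labelled Asxl1-MT2 therefore lay 14.6-fold above the others on average, a log2 fold change of 3.87 ± 0.0994 (SE; edgeR adjusted p = 7.58e-14). It is not given whether reads of the construct were counted to the mouse gene, and construct and endogenous transcripts cannot be separated in these counts. Csf3r, the receptor gene itself, was at 337, 324 and 232 CPM against 320, 306 and 253 CPM, and the groups overlapped (log2 fold change -0.02 ± 0.167, edgeR adjusted p = 0.994). Hoxb8 was at 661 ± 40 CPM against 720 ± 65 CPM (SD, n = 3 each; edgeR adjusted p = 0.793).

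Truncated Asxl1 alone changed a small set of genes. At a Benjamini-Hochberg adjusted p under 0.05 by edgeR's quasi-likelihood test, which is what "called" means below, 143 genes were higher (1.24% of those tested) and 72 were lower (0.622%), 215 or 1.86% in all. The changes were mostly modest. Among the higher genes the median log2 fold change was 0.70, and 44 of them reached a doubling. Among the lower genes the median was -1.0, with 37 at or below a halving, and the median over all tested genes was 0.00. At an unadjusted p under 0.05, 784 genes (6.77%) were higher and 479 (4.14%) lower, and DESeq2 called 193 (1.67%) and 107 (0.924%), shares against which the same counts for the lists below are to be read. In all 143 higher genes and in 71 of the 72 lower genes the 3 libraries of one group lay wholly to one side of the 3 of the other. Over all tested genes, such separation was found for 8.82% upwards and 7.06% downwards. The called genes were selected on these same libraries, so their separation adds no separate support for the calls.

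The number of called genes depended on single libraries. Leaving out 1 of the 6 libraries at a time gave between 60 and 185 calls in place of 215. The lowest number came without Asxl1-MT2/Empty A, where 39 genes were higher and 21 lower, all among the 215. Without Empty/Empty A there were 101, without Empty/Empty B 104, without Asxl1-MT2/Empty B 106 and without Empty/Empty C 136. Across the 12 fits that each left out 1 library, 57 genes were called every time, 37 of them higher and 20 lower. These 57 include Asxl1, Dlk1, Olfm1, Spon1, Mgll and Nt5e among the higher genes and Cpa3, Prg2, Cd34, Angpt1, Vim, Lpxn and Fyb among the lower ones. Leaving out 1 of the 6 T618I libraries, which belong to neither group but share the fit, gave 162 to 276 calls.

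**Figure D1:**
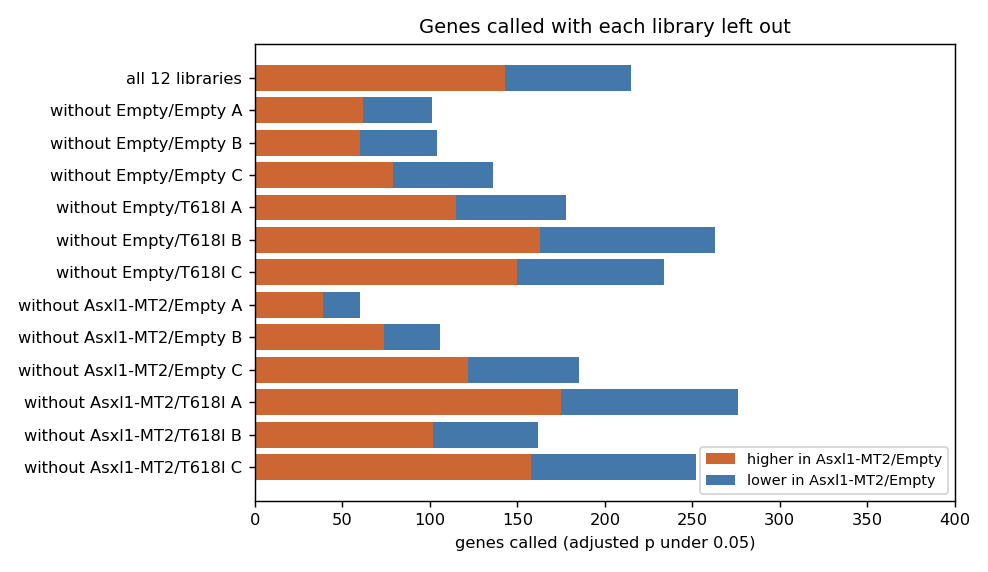
Number of genes called (x axis, adjusted p under 0.05) with all 12 libraries and with each library left out (y axis). Orange bars count genes higher and blue bars genes lower in Asxl1-MT2/Empty, from 143 and 72 with all libraries to 39 and 21 without Asxl1-MT2/Empty A.

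After Asxl1, the 11 genes with the largest increases were all under 2 CPM in control cells. Dlk1, an imprinted gene for a transmembrane relative of the Notch ligands (chromosome 12, 109452485 to 109463336), was at 1.11, 0.696 and 1.55 CPM in Empty/Empty and at 13.8, 17.8 and 9.48 CPM in Asxl1-MT2/Empty. The lowest Asxl1-MT2 library was thus above every control library, and the log2 fold change was 3.61 ± 0.4 (edgeR adjusted p = 0.000125). Olfm1, which codes for a secreted olfactomedin glycoprotein, went from 1.01, 0.696 and 1.14 CPM to 6.33, 5.92 and 5.69 CPM (2.65 ± 0.262, edgeR adjusted p = 4.36e-05). Spon1, an extracellular matrix protein gene, went from 0.705, 0.497 and 0.825 CPM to 3.46, 3.26 and 4.49 CPM (2.45 ± 0.35, edgeR adjusted p = 0.00107). Actr3b, which codes for a form of the actin-nucleating Arp3 subunit, rose from 0.302, 0.199 and 0.103 CPM to 1.38, 1.68 and 1.6 CPM (2.87 ± 0.498, edgeR adjusted p = 0.00565). These 4 genes stayed called whichever library was left out.

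The remaining large increases were at or below 5 CPM and less stable. Epas1, the gene for the hypoxia-inducible factor HIF-2alpha, was near 0.2 CPM in each control library (0.201, 0.199 and 0.206) and at 0.989, 1.38 and 0.998 CPM with Asxl1-MT2, a log2 fold change of 2.40 ± 0.553 with an edgeR adjusted p of 0.0338. Its call was lost without any 1 of the 6 libraries compared (highest edgeR adjusted p 0.147) and under DESeq2 (adjusted p = 0.0583). Snx7, a sorting nexin gene (2.46), lost its call without Empty/Empty A (edgeR adjusted p = 0.0533), and the kinesin gene Kif19a (2.41) without Asxl1-MT2/Empty A (edgeR adjusted p = 0.0555). The log2 fold changes of Tmem9 (2.19), D8Ertd82e (2.08), Samd4 (2.07) and Clic5 (1.97) were of similar size. D8Ertd82e lost its call without Empty/Empty B or Asxl1-MT2/Empty A (highest edgeR adjusted p 0.058), and Tmem9 without Empty/Empty B or C or Asxl1-MT2/Empty A or B (up to 0.0825). Clic5 lost it without any of the 6 but Empty/Empty C (highest edgeR adjusted p 0.124), and Samd4 without any 1 of the 6 or Asxl1-MT2/T618I B (up to 0.191).

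**Figure D2:**
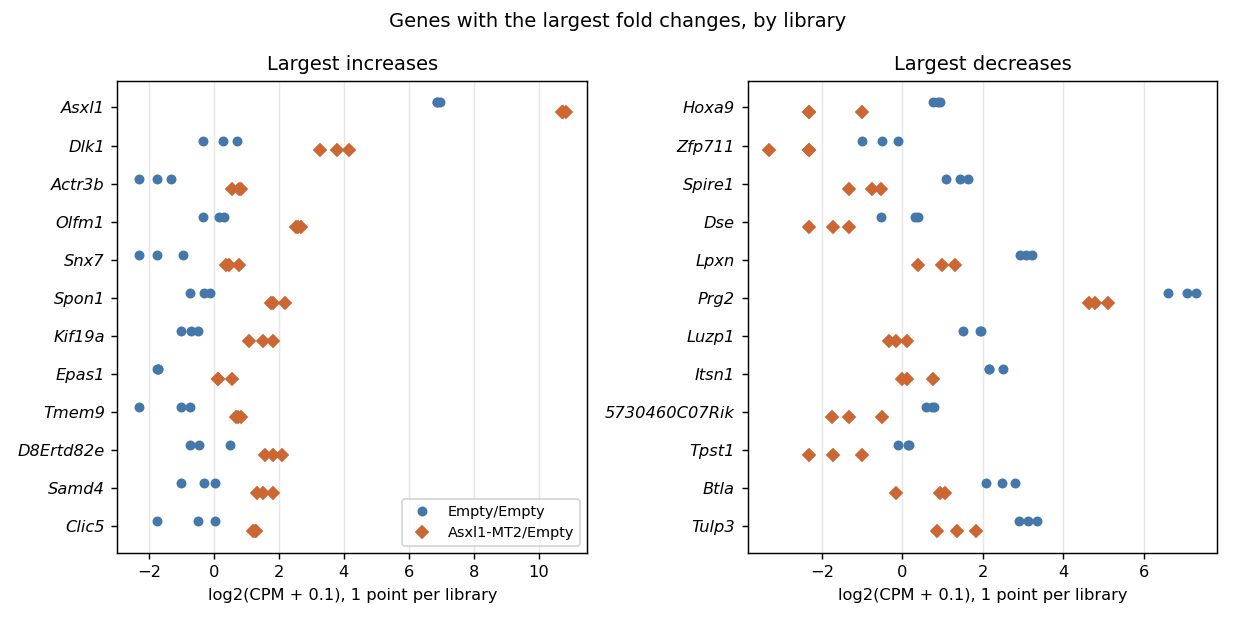
The 12 largest increases (left) and 12 largest decreases (right) among called genes whose groups did not overlap, with 1 point per library on a log2 axis of CPM after a small constant was added. Circles are the 3 Empty/Empty and diamonds the 3 Asxl1-MT2/Empty libraries; Asxl1 and Prg2 are the only genes plotted with a group above 20 CPM.

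Of the 12 largest decreases, 6 held with each library left out: Spire1, Luzp1, Btla, Tulp3, and Lpxn and Prg2, which are described below. Spire1, an actin nucleator, fell from 2.01, 2.58 and 2.99 CPM to 0.494, 0.592 and 0.299 CPM (log2 fold change -2.42 ± 0.424, edgeR adjusted p = 0.00597). Luzp1, an actin-associated leucine zipper protein gene, fell from 2.72, 3.78 and 3.71 CPM to 0.791, 0.987 and 0.699 CPM (-2.03 ± 0.329, edgeR adjusted p = 0.00326). Btla, an inhibitory receptor of the immunoglobulin family, fell from 4.13, 5.47 and 6.91 CPM to 0.791, 1.97 and 1.8 CPM (-1.85 ± 0.269, edgeR adjusted p = 0.00131). In each of the 3 genes the highest Asxl1-MT2 library was below the lowest control library. Tulp3, a ciliary trafficking adaptor gene, had a log2 fold change of -1.76 ± 0.228 (edgeR adjusted p = 0.00052), and these 4 calls held with each library left out.

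Other large decreases rested on few reads. Hoxa9, a homeobox gene of stem and progenitor cells (chromosome 6, 52223097 to 52227370), went from 1.81, 1.59 and 1.75 CPM to 0.395, 0.0987 and 0.0998 CPM, a log2 fold change of -3.04 ± 0.749 with an edgeR adjusted p of 0.0472. The call was lost without any 1 of the 6 libraries or Asxl1-MT2/T618I B (highest edgeR adjusted p 0.201). Zfp711 had 18 counts in the 3 control libraries and 2 in the 3 Asxl1-MT2 libraries, a ratio of 9.19 with a 95% exact counting interval of 2.2 to 81.7, and DESeq2 did not call it (adjusted p = 0.127). Without any 1 of the 6 libraries, Empty/T618I A or C, or Asxl1-MT2/T618I B, its edgeR adjusted p rose above the threshold, to at most 0.189. Itsn1, an endocytic scaffold gene (-2.03), lost its call without Asxl1-MT2/Empty A or B (highest edgeR adjusted p 0.0843), and 5730460C07Rik (-2.02) without any of the 6 but Asxl1-MT2/Empty C (up to 0.161). Dse (-2.23) and Tpst1 (-1.97), enzymes that modify glycosaminoglycans and tyrosines, were not called by DESeq2 (adjusted p = 0.0558 and 0.0636). Each also lost its call without Asxl1-MT2/T618I B, Empty/T618I A or C, or any 1 of the 6 libraries, except Empty/Empty B in the case of Dse (highest edgeR adjusted p 0.189 for both).

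Among genes of mast cells, basophils and eosinophils, all calls were decreases. Of 29 tested genes on that list, 7 were lower and 0 higher, against 0.622% and 1.24% of all tested genes, and the list's median log2 fold change was -0.47. In 13 of the 29 the Asxl1-MT2 libraries all lay below the controls, and in 0 all above. With 0 calls upwards by edgeR, 0 members were higher at an unadjusted p under 0.05 and 0 were higher by DESeq2. This list was drawn up with earlier results of these data known, so its direction is a description. In bulk RNA, fewer cells of a type and less RNA of these genes per cell cannot be told apart.

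Promoter sequence is shown first for the 3 of the fallen mast cell, eosinophil and GATA genes whose promoter held the GATA motif AGATAA on either strand. Of the 8 called lower on the GATA, mast cell and megakaryocyte lists, 7 had an entry among RefSeq promoters (GRCm38.p6), and 3 of these 7 (42.9%) held AGATAA in the 250 bases before the start site of the entry listed first, against 5.9% of all tested genes with an entry. This difference was not tested. The median GC content of these 7 promoters was 48.4%, below that of all tested genes with an entry, and AGATAA is mostly A and T. Motifs of other factors were also above their shares in all tested genes, RUNX and E-box at 28.6% each and the TATA box at 14.3%. ETS and C/EBP motifs were below theirs, at 0%. Whether the share with AGATAA is specific to that motif or follows from base composition was not tested. The 3 sequences follow, 5′ to 3′ on the strand of the gene, up to the base before that start site, with the motif in capitals.
Cpa3, chr3:20242182-20242431, minus strand: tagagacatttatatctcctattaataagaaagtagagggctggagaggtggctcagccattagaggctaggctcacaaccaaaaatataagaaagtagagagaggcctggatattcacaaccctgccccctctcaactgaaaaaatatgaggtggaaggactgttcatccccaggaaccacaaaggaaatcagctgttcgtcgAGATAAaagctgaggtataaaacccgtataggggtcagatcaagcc
Il1rl1, chr1:40429320-40429569, plus strand: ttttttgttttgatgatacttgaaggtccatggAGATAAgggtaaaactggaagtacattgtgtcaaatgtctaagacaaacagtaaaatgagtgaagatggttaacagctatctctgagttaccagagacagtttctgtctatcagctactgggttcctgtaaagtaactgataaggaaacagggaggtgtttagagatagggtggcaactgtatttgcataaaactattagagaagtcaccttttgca
Il5ra, chr6:106749038-106749287, minus strand: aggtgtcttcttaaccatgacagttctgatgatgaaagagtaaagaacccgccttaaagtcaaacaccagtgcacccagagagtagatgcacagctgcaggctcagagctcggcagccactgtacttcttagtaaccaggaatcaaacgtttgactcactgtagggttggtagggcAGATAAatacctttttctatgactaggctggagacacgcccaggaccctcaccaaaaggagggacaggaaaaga
The first base of the motif lies 46 bases before the start in Cpa3, 217 in Il1rl1 and 74 in Il5ra. The entry of Il1rl1 starts 24706 bases inside the span that RefSeq gives the gene, so its sequence lies before an internal start site, and the table lists 2 entries for this gene. For Cpa3 the distance is 28 bases and for Il5ra 0. A match of letters does not show that a factor binds there. The same count over all lower genes was void, since 76.4% of them had a promoter entry and a minimum of 80% was set.

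Of the mast cell genes, 3 fell. Cpa3, the mast cell carboxypeptidase (chromosome 3, 20215616 to 20242209), was at 620, 518 and 576 CPM in Empty/Empty and at 242, 268 and 296 CPM in Asxl1-MT2/Empty, 0.47 of the control level. The log2 fold change was -1.09 ± 0.18 (edgeR adjusted p = 0.00369), and the call held with each library left out. Hdc, the enzyme that makes histamine, fell from 437, 421 and 374 CPM to 312, 272 and 284 CPM (-0.51 ± 0.108, edgeR adjusted p = 0.0209). Without Empty/Empty A or B, or without any Asxl1-MT2/Empty library, Hdc was no longer called (highest edgeR adjusted p 0.12). Il1rl1, the receptor for interleukin 33, was at 9.56, 6.96 and 11.7 CPM against 1.78, 3.26 and 3.69 CPM (-1.69 ± 0.39, edgeR adjusted p = 0.0346), with the groups apart, and lost its call without any of the 6 libraries but Empty/Empty B (up to 0.188).

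Of the eosinophil genes, 3 fell. Prg2, the eosinophil major basic protein gene (chromosome 2, 84980461 to 84983632), was at 158, 97.3 and 134 CPM in the controls and at 25, 34.6 and 27.6 CPM with Asxl1-MT2, a log2 fold change of -2.16 ± 0.354 (edgeR adjusted p = 0.00346) that stayed called without each library. Its neighbour in the family, Prg3, was at 41.9, 32.4 and 36.1 CPM against 14.3, 14.1 and 14.2 CPM (-1.37 ± 0.338, edgeR adjusted p = 0.0472). Prg3 was not called by DESeq2 (adjusted p = 0.0778), nor without any 1 of the 6 libraries, Empty/T618I A or Asxl1-MT2/T618I B (highest edgeR adjusted p 0.181). Il5ra, the interleukin 5 receptor on eosinophils, went from 4.03, 2.88 and 2.58 CPM to 0.791, 1.18 and 0.798 CPM (-1.76 ± 0.348, edgeR adjusted p = 0.0127) and lost its call without Empty/Empty A or Asxl1-MT2/Empty A or C (up to 0.087). Summed over the markers, the eosinophil set stood at 146 to 227 CPM in the controls and 45.9 to 55.4 CPM with Asxl1-MT2, and the mast cell and basophil set at 1053 to 1204 against 651 to 697 CPM. Fcer1a, the alpha chain of the IgE receptor, and Ccr3, the eosinophil eotaxin receptor, were under 1 CPM in all 6 libraries.

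Gata2 and Gata1, transcription factors of these lineages, were lower too. Gata2 (chromosome 6, 88193891 to 88207032) was at 72.2, 63.6 and 63.1 CPM in Empty/Empty and at 39.6, 40.4 and 42.5 CPM in Asxl1-MT2/Empty, a log2 fold change of -0.70 ± 0.141 (edgeR adjusted p = 0.0139). Gata1 (chromosome X, 7959260 to 7976663) was at 5.44, 4.67 and 4.75 CPM against 0.791, 1.78 and 2.2 CPM (-1.63 ± 0.329, edgeR adjusted p = 0.0139). The groups did not overlap in either gene. Both calls were lost without Empty/Empty A, Asxl1-MT2/Empty A or Asxl1-MT2/Empty B, with a highest edgeR adjusted p of 0.0865 for Gata2 and 0.0901 for Gata1. Of the 12 tested GATA factors and partners, these 2 were called lower and 0 higher, with a median log2 fold change of -0.16 (at an unadjusted p under 0.05, 1 higher and 5 lower; by DESeq2, 1 and 3). Of the 29 genes on the mast cell, basophil and eosinophil list, 22 were not called. Kit, the stem cell factor receptor, was at 326 ± 24.4 against 349 ± 11.7 CPM, and the common beta receptor chain Csf2rb at 534 ± 32.5 against 546 ± 17.1 CPM (edgeR adjusted p = 0.853 and 0.977). Fcer1g, the shared gamma chain of Fc receptors, was at 167 ± 18.6 against 158 ± 8 CPM (edgeR adjusted p = 0.915). Genes restricted to these lineages were also among the uncalled ones, of which 2 are named here with their values known. Mcpt8, a basophil protease, was at 94 ± 12.6 against 97.5 ± 17.7 CPM, and Siglecf, a lectin of eosinophils, at 86.3 ± 6.51 against 94.2 ± 2.8 CPM (edgeR adjusted p = 0.984 and 0.765).

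**Figure D3:**
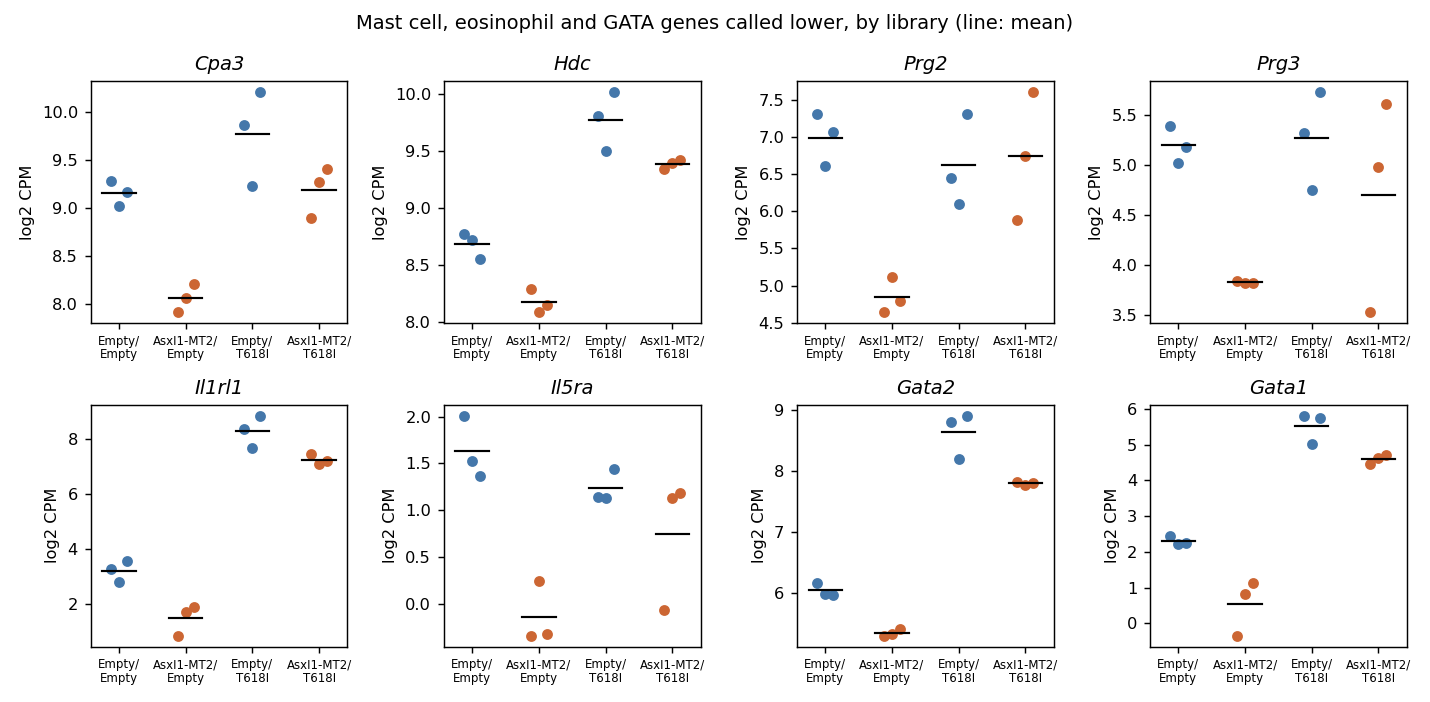
Expression of 8 genes called lower, as log2 CPM with 1 point per library in all 4 groups (blue without and orange with Asxl1-MT2; lines are group means). In each panel the 3 Asxl1-MT2/Empty points lie below the 3 Empty/Empty points; with T618I, the 2 groups overlap for Cpa3, Prg2, Prg3 and Il5ra.

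Megakaryocyte and erythroid genes leaned the same way, with a single call. Gata1 was the 1 gene of 13 tested on that list to be called, with 0 called higher, and the list's median log2 fold change was -0.44. In 8 of the 13 the Asxl1-MT2 libraries all lay below the controls, and 7 were lower and 1 higher at an unadjusted p under 0.05 (by DESeq2, 3 lower and 0 higher). Over all tested genes 4.14% were lower and 6.77% higher at that threshold, and 0.924% and 1.67% by DESeq2. Itga2b, the platelet integrin subunit, was at 49 ± 6.03 against 32.4 ± 1.3 CPM (edgeR adjusted p = 0.0614). Tal1, a partner of the GATA factors, was at 58.3 ± 3.23 against 49.8 ± 3.01 CPM (edgeR adjusted p = 0.338).

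Of 22 tested stem and progenitor genes, 4 were lower and 1 higher, with a median log2 fold change of -0.11. Cd34, the surface sialomucin of blood progenitors (chromosome 1, 194938821 to 194961292), was at 240, 223 and 204 CPM in Empty/Empty and at 92.9, 110 and 135 CPM in Asxl1-MT2/Empty. The highest Asxl1-MT2 library was below the lowest control, and the log2 fold change was -0.98 ± 0.145 (edgeR adjusted p = 0.00148). Angpt1, the ligand of the Tie2 receptor, fell from 24.8, 22.5 and 26.4 CPM to 8.5, 10.8 and 16.3 CPM (-1.05 ± 0.184, edgeR adjusted p = 0.00597). Both calls held with each library left out. Gata2 and Hoxa9, described above, were the other lower genes. Egfl7, a secreted factor of endothelial and blood stem cells, was the higher one, from 9.67, 7.26 and 7.94 CPM to 14.6, 14.7 and 13 CPM (0.77), and lost its call without Empty/Empty B or Asxl1-MT2/Empty A (highest edgeR adjusted p 0.0651). Myb, a progenitor transcription factor, was at 1063 ± 82.8 against 1003 ± 76.9 CPM (edgeR adjusted p = 0.9).

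Primary granule genes are those that neutrophil precursors make first. The list used for them also holds Clec12a, a receptor gene. Of 15 tested, 3 were called higher and 0 lower, with a median log2 fold change of 0.13 (6 higher and 0 lower at an unadjusted p under 0.05; by DESeq2, 5 and 0). Elane, neutrophil elastase, was at 1138, 1076 and 1146 CPM in the controls and at 1700, 1693 and 1529 CPM with Asxl1-MT2, a rise of 1.46-fold (0.55 ± 0.13, edgeR adjusted p = 0.0382) with the groups apart. It was not called without any 1 of the 6 libraries, Empty/T618I A or Asxl1-MT2/T618I B (highest edgeR adjusted p 0.19). Clec12a, an inhibitory lectin receptor of myeloid cells, went from 354, 363 and 399 CPM to 547, 485 and 475 CPM (0.43), and Nkg7, a granule membrane protein gene, from 145, 118 and 108 CPM to 192, 189 and 164 CPM (0.56). The calls were lost without A or B of either group for Clec12a (highest edgeR adjusted p 0.149), and without Empty/Empty B or C or Asxl1-MT2/Empty A or B for Nkg7 (up to 0.138). The other abundant proteases of these granules were not called: Ctsg was at 3434 ± 288 against 3813 ± 236 CPM and Prtn3 at 3023 ± 179 against 3262 ± 429 CPM (edgeR adjusted p = 0.688 and 0.85). Mpo ran from 24757 to 32814 CPM in the controls and from 28439 to 31426 CPM with Asxl1-MT2.

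Secondary granule genes, made in later precursors, moved in both directions. Of 24 tested, 5 were higher and 1 lower, with a median log2 fold change of 0.22. Fcnb, a secreted ficolin, was at 119, 118 and 117 CPM against 313, 254 and 206 CPM (1.13 ± 0.216, edgeR adjusted p = 0.0104). It lost its call without Empty/Empty B or Asxl1-MT2/Empty A (highest edgeR adjusted p 0.0857) and under DESeq2 (adjusted p = 0.0897). BC100530, a stefin A family gene, went from 163, 106 and 143 CPM to 340, 247 and 255 CPM (1.03 ± 0.161, edgeR adjusted p = 0.00238) and stayed called throughout. Its relative Stfa1 went from 200, 193 and 220 CPM to 376, 300 and 258 CPM (0.61) and was not called without A or B of either group (highest edgeR adjusted p 0.118). These cystatins are near-identical, so reads may be split between them. Itgam, the CD11b integrin chain, rose from 212, 219 and 246 CPM to 363, 289 and 314 CPM (0.51, edgeR adjusted p = 0.0346). Its call was lost without Empty/Empty A or B, Asxl1-MT2/Empty A or C, or Asxl1-MT2/T618I B (highest edgeR adjusted p 0.214).

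Ltf, lactoferrin, was the gene of this list called lower, and the 1 called gene of 215 whose groups overlapped. It was at 119, 41 and 115 CPM in Empty/Empty and at 47.5, 29.5 and 30.1 CPM in Asxl1-MT2/Empty (-1.36 ± 0.294, edgeR adjusted p = 0.0233). Control library B lay between the Asxl1-MT2 libraries, and the call was lost without Empty/Empty A or C or Asxl1-MT2/Empty B or C (highest edgeR adjusted p 0.136). Ceacam1, the remaining higher member (0.42), was not called without any 1 of the 6 libraries, Empty/T618I A or Asxl1-MT2/T618I B (highest edgeR adjusted p 0.253). Ngp, an abundant neutrophil granule protein gene, was at 595 ± 211 against 886 ± 279 CPM, and Lcn2 at 305 ± 50 against 347 ± 61 CPM (edgeR adjusted p = 0.318 and 0.755).

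Tertiary granules and mature neutrophils were represented by 36 tested genes, of which 2 were higher and 2 lower, with a median log2 fold change of 0.08. Trem3, an activating receptor of the myeloid TREM family, rose from 59.6, 55.9 and 64.8 CPM to 96.9, 86.2 and 89.6 CPM (0.60 ± 0.0922, edgeR adjusted p = 0.00215). The call held with each library left out, and the groups did not overlap. S100a8 and S100a9, the calprotectin subunits of mature neutrophils, were at 390 ± 99.6 against 419 ± 89.4 CPM and 381 ± 113 against 394 ± 50.8 CPM (edgeR adjusted p = 0.959 and 0.987). Of 17 granulocyte transcription factors only Rxra, a retinoid receptor, was called, from 7.15, 7.36 and 4.33 CPM to 14.6, 14.1 and 14 CPM (1.18, edgeR adjusted p = 0.00999), a call lost without Asxl1-MT2/Empty A (0.0555).

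**Figure D4:**
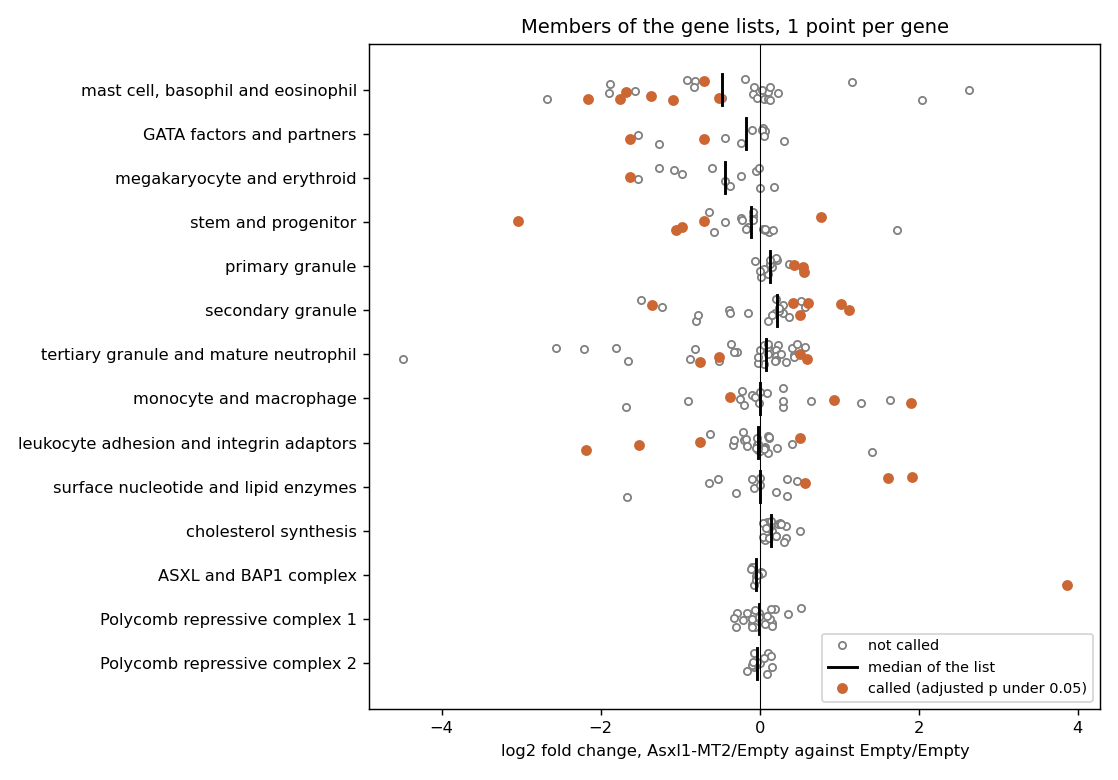
Log2 fold change (x axis) of each tested member of 14 gene lists (y axis), with filled points for called genes, open points for the others and a black bar for the list's median. Called mast cell, GATA and megakaryocyte genes lie left of 0 and called members of the primary granule list right of 0. Asxl1, at 3.87, is the single called point of its complex.

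Monocyte genes showed little change as a list, with 2 higher and 1 lower of 19 tested and a median log2 fold change of 0.01. Ly6c2, a surface protein of inflammatory monocytes and late progenitors, went from 97.4, 99.1 and 84.4 CPM to 238, 170 and 131 CPM (0.94). Its call was lost without any of the 6 libraries but Asxl1-MT2/Empty C (highest edgeR adjusted p 0.149) and under DESeq2 (adjusted p = 0.0512), and reads of the Ly6 family may be split between copies. Fn1, fibronectin, went from 0.503, 0.895 and 0.929 CPM to 1.38, 3.16 and 4.29 CPM (1.91). Emb, the embigin adhesion protein gene, fell from 453, 457 and 451 CPM to 318, 349 and 384 CPM (-0.37). Both lost their call without Empty/T618I A, Asxl1-MT2/T618I B or any 1 of the 6 libraries, except Asxl1-MT2/Empty A for Fn1 and Asxl1-MT2/Empty C for Emb (highest edgeR adjusted p 0.186 and 0.276). The monocyte and macrophage markers summed to 122 to 137 CPM in the controls and 98.4 to 160 CPM with Asxl1-MT2.

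Adhesion and integrin adaptor genes included 3 decreases that held with each library left out. Of 28 tested, 3 were lower (Lpxn and Fyb among them) and 1 higher (Itgam), with a median log2 fold change of -0.02. Lpxn, leupaxin, a paxillin relative at integrin contacts (chromosome 19, 12795887 to 12833813), was at 9.16, 8.25 and 7.53 CPM against 1.88, 2.37 and 1.2 CPM (-2.19 ± 0.277, edgeR adjusted p = 0.000464). Fyb, an adaptor that links immune receptors to integrins (chromosome 15, 6522796 to 6665608), was at 20.5, 23.9 and 22.3 CPM against 5.14, 8.88 and 9.28 CPM (-1.52 ± 0.256, edgeR adjusted p = 0.00455). Vim, the intermediate filament vimentin (chromosome 2, 13574311 to 13582826), was at 303, 305 and 303 CPM in the controls and at 179, 183 and 164 CPM with Asxl1-MT2. Its fall to 0.577 of the control level (-0.79 ± 0.101, edgeR adjusted p = 0.000464) was larger than the spread in either group. All 3 genes stayed called with each library left out. Vim was also the 1 called gene of 6 tested on the stromal and endothelial list. Of 6 stromal and endothelial markers, 3 (Dcn, Cdh5 and Kdr) were at 0 in all 6 libraries. The 6 markers together summed to 9.2 to 15.3 CPM in the controls and 14.4 to 14.7 CPM with Asxl1-MT2. Pecam1, an uncalled member of the list, was at 280 ± 17.8 against 325 ± 13.7 CPM (edgeR adjusted p = 0.339).

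Among 15 tested surface enzymes of nucleotides and lipids, 3 were higher and 0 lower, with a median log2 fold change of 0.01 (at an unadjusted p under 0.05, 4 higher and 1 lower; by DESeq2, 3 and 0). Mgll, monoacylglycerol lipase (chromosome 6, 88724412 to 88828360), rose from 6.44, 6.06 and 5.16 CPM to 25.6, 20.4 and 21 CPM (1.92 ± 0.243, edgeR adjusted p = 0.000464). Nt5e, the ectonucleotidase CD73 that makes adenosine (chromosome 9, 88327609 to 88372089), rose from 5.13, 2.98 and 5.47 CPM to 15, 11 and 15.6 CPM (1.62 ± 0.281, edgeR adjusted p = 0.00565). Neither pair of groups overlapped, and both calls held throughout. Ada, adenosine deaminase, rose from 42.7, 45.3 and 46 CPM to 75.1, 65.4 and 59 CPM (0.57) and was not called without Empty/Empty A or Asxl1-MT2/Empty A (highest edgeR adjusted p 0.0886).

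Of 24 glycolysis genes, 2 were higher and 1 lower, with a median log2 fold change of 0.02. Slc2a3, the glucose transporter GLUT3, fell from 34.7, 27.3 and 28.6 CPM to 11.6, 16.6 and 14.2 CPM (-1.10 ± 0.15, edgeR adjusted p = 0.000856), and held with each library left out. Pfkfb4, an enzyme that sets the level of the glycolytic activator fructose bisphosphate, rose from 27.1, 34.6 and 32.7 CPM to 54.7, 48.6 and 44.2 CPM (0.64), and the lactate transporter gene Slc16a3 from 63.9, 56 and 55.8 CPM to 77.7, 84.5 and 81 CPM (0.47). Pfkfb4 lost its call without Empty/Empty A or C or Asxl1-MT2/Empty A or B (highest edgeR adjusted p 0.145), and Slc16a3 without any 1 of the 6 libraries or Asxl1-MT2/T618I B (up to 0.185). Of 24 NADPH oxidase and phagocyte receptor genes, Itgam and Hvcn1 were higher and 0 lower (at an unadjusted p under 0.05, 6 higher and 3 lower; by DESeq2, 3 and 1). Hvcn1, a proton channel that supports the oxidative burst, went from 150, 146 and 127 CPM to 218, 186 and 173 CPM (0.44) and lost its call without Empty/Empty B or C or Asxl1-MT2/Empty A or B (highest edgeR adjusted p 0.141).

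A few other called genes came from lists with a single change. Perp, a p53 target and desmosome protein gene, fell from 63.2, 58.6 and 51.1 CPM to 27.5, 25.4 and 34.5 CPM (-0.98), as the 1 called gene of 21 p53 targets, and lost its call without Asxl1-MT2/Empty A or B (highest edgeR adjusted p 0.0583). Tcf4, a transcription factor of plasmacytoid dendritic cells, fell from 17.3, 19.5 and 18 CPM to 10.2, 11.5 and 15.4 CPM (-0.56), with its call lost without Empty/T618I A, Asxl1-MT2/T618I B or any of the 6 libraries but Asxl1-MT2/Empty C (highest edgeR adjusted p 0.245). Of the abundant genes that the lists do not hold, B4galt6, a lactosylceramide synthase gene, rose from 327, 372 and 344 CPM to 462, 415 and 456 CPM (0.35), and Bzrap1 rose from 251, 240 and 253 CPM to 392, 413 and 302 CPM (0.57). Emilin2, an extracellular glycoprotein gene, rose from 214, 219 and 273 CPM to 298, 353 and 388 CPM (0.56), and the peroxidase gene Prdx1 fell from 168, 171 and 184 CPM to 138, 149 and 142 CPM (-0.28). In all 4 the groups were apart. The calls of B4galt6 and Prdx1 were lost without any 1 of the 6 libraries, Empty/T618I A or Asxl1-MT2/T618I B, and that of Prdx1 also without Empty/T618I B. Bzrap1 lost its call without any of the 6 but Asxl1-MT2/Empty C, and Emilin2 without any of the 6 but Empty/Empty C, or without Asxl1-MT2/T618I B. For B4galt6, Prdx1, Bzrap1 and Emilin2 the edgeR adjusted p then rose to at most 0.185, 0.237, 0.14 and 0.204.

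The machinery that ASXL1 belongs to was not called beyond Asxl1 itself. Of 12 tested genes of the ASXL and BAP1 complex, 1 (Asxl1) was higher and 0 lower, and the list's median log2 fold change was -0.04 (at an unadjusted p under 0.05 and by DESeq2, the same counts of 1 and 0). Hcfc1, a large cofactor bound by BAP1, was at 508 ± 46.1 against 486 ± 31.5 CPM, and Mbd6, a partner of BAP1, at 254 ± 92.4 against 250 ± 53.7 CPM (edgeR adjusted p = 0.907 and 0.996). Bap1 and Asxl2, named here with their values known, were at 94.2 and 78.2 CPM in the controls and at 90.7 and 78.5 CPM with Asxl1-MT2. Of 23 genes of Polycomb repressive complex 1 and 13 of complex 2, edgeR called 0. At an unadjusted p under 0.05, 2 of the complex 1 genes were higher and 1 lower, and 0 of the complex 2 genes were either, and DESeq2 called 1 complex 1 gene higher. These counts are of messenger RNA only, and no chromatin mark was measured in the libraries used here.

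Among 8 tested genes named in earlier work on mutant ASXL1, only Hoxa9 was called, and the median log2 fold change was -0.03. Clec5a, a myeloid lectin receptor of that list, was at 176 ± 9.93 against 189 ± 19.8 CPM, and the cell cycle inhibitor Cdkn1a at 29.4 ± 5.9 against 32 ± 1.33 CPM (edgeR adjusted p = 0.846 and 0.844). Hoxa9 was also the 1 called of 11 Hox and TALE genes (median -0.15), and its partner Meis1 was at 8.45 ± 1.94 against 8 ± 1.52 CPM (edgeR adjusted p = 0.972). Dlk1 was the 1 called of 10 imprinted genes (median 0.01), and the imprinted Gnas was at 831 ± 59.3 against 878 ± 34.2 CPM (edgeR adjusted p = 0.845).

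Of the 40 lists, 17 held no called gene. They covered 342 tested genes, with 0 edgeR calls by that selection. DESeq2 called 3 higher (0.877%) and 1 lower (0.292%), against 1.67% and 0.924% of all tested genes. It shared 207 of the 215 edgeR calls, so its counts here are not independent of the selection. At an unadjusted p under 0.05, 28 (8.19%) were higher and 22 (6.43%) lower, against 6.77% and 4.14% of all tested genes. Among the 17 lists were S phase, mitosis, the Myc and ribosome biogenesis genes, the interferon response and the JAK-STAT feedback genes. Of the 27 Myc and ribosome biogenesis genes, 0 were higher and 4 lower at an unadjusted p under 0.05, with a median log2 fold change of -0.13. In 5 of the 27 the Asxl1-MT2 libraries all lay below the controls, and in 0 all above. For S phase and for mitosis, 0 genes passed that threshold in either direction. Mki67, a proliferation marker, was at 727 ± 107 against 705 ± 39.9 CPM and the replication helicase gene Mcm6 at 513 ± 38.1 against 533 ± 15 CPM (edgeR adjusted p = 0.983 and 0.925). Myc was at 383 ± 37.4 against 326 ± 23.9 CPM (edgeR adjusted p = 0.489).

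The same construct was also compared in cells carrying CSF3R T618I, in 6 libraries that share none with the comparison above. There Asxl1 went from 149 ± 16.9 to 1004 ± 83.7 CPM, a smaller rise than without T618I (2.76; difference of the log2 fold changes -1.11, edgeR adjusted p = 2.29e-05). In those cells 25.4% of tested genes were called higher with Asxl1-MT2 and 18.5% lower. Of the 143 genes higher without T618I, 106 (74.1%) were higher with it, 7 lower and 30 not called. Of the 72 lower genes, 38 (52.8%) were lower with T618I, 12 higher and 22 not called. Both shares were above those of all tested genes. Of the genes called with each library left out, 31 of the 37 higher ones were higher with T618I and 0 lower. Of the 20 lower ones, 12 were lower with T618I and 4 higher.

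The size of the effect often differed between the 2 backgrounds. For 106 of the 215 genes the difference between the effects was itself called, against 19.6% of all tested genes (14.1% with a higher and 5.51% with a lower value in T618I cells). The effect without T618I, on which the 215 genes were selected, is part of this difference. Their share is therefore not independent of the selection. In 53 of the 143 higher genes (37.1%) the rise was called in both backgrounds and was larger with T618I, with the difference called. The same held for the fall in 0 of the 72 lower genes. This combination was not counted over all tested genes. Among the 53 genes, Olfm1 rose from 0.586 ± 0.146 to 14.9 ± 3.02 CPM in T618I cells (4.63, difference 1.98 with an edgeR adjusted p of 0.00417). Dlk1 rose from 0.0666 ± 0.0578 to 3.09 ± 2.1 CPM in T618I cells (5.30, edgeR adjusted p = 5.74e-05). Its difference between backgrounds was not called (1.7, edgeR adjusted p = 0.339), and with Asxl1-MT2 but without T618I it stood at 13.7 ± 4.14 CPM. All 24 tested secondary granule genes were higher with Asxl1-MT2 in T618I cells (median 2.39), where 5 were higher without it. For the lower genes the median log2 fold change was -1.0 without T618I and -0.40 with it. These genes were selected on the first of the 2 values.

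The mast cell and GATA genes differed among themselves. Gata2 fell from 408 ± 99.8 to 224 ± 4.52 CPM in T618I cells (-0.86, edgeR adjusted p = 4e-05), Gata1 from 47.4 ± 12.9 to 24.3 ± 2.09 CPM (-0.96) and Il1rl1 from 333 ± 129 to 152 ± 19.5 CPM (-1.13). Cpa3 fell from 905 ± 293 to 589 ± 104 CPM (-0.62, edgeR adjusted p = 0.00943), and Hdc and Cd34 fell as well (-0.40 and -0.82). Prg2 gave 105 ± 47.3 against 120 ± 68.8 CPM in T618I cells, and the difference from its effect without T618I was 2.36 (edgeR adjusted p = 0.00225). Prg3 and Il5ra were not called in T618I cells (edgeR adjusted p = 0.348 and 0.36), and for them the difference between backgrounds was not called either.

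For 19 genes the direction was opposite in the 2 backgrounds, with both effects and the difference called. They were 12 of the 72 lower genes (16.7%) and 7 of the 143 higher genes (4.9%). In T618I cells 25.4% of all tested genes were called higher and 18.5% lower with Asxl1-MT2, so both shares were below those of all tested genes. The 12 that were lower without T618I and higher with it included Hoxa9, Fyb, Ltf, Mfsd6, Slc2a3, Camk2d, Vim, Pde4b, Gng2 and Acvr1b. The 7 that were higher without it and lower with it were Sec24d, Them6, Slc25a23, Gmpr, Asb13, Col18a1 and Plcb4. Those that the naming rule does not cover were selected after their values were seen. Vim went from 465 ± 61.4 to 663 ± 78.6 CPM in T618I cells (0.51; difference 1.30, edgeR adjusted p = 1.65e-05). Fyb went from 135 ± 37.3 to 224 ± 53.8 CPM (0.74; difference 2.25, edgeR adjusted p = 0.000104), and Slc2a3 also rose (0.79). Ltf rose from 97.7 ± 26.4 to 1002 ± 50.3 CPM (3.36; difference 4.72, edgeR adjusted p = 3.54e-06). Hoxa9 went from 1.13 ± 0.547 to 4.4 ± 2.93 CPM (1.97; difference 5.00, edgeR adjusted p = 0.00068).

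**Figure D5:**
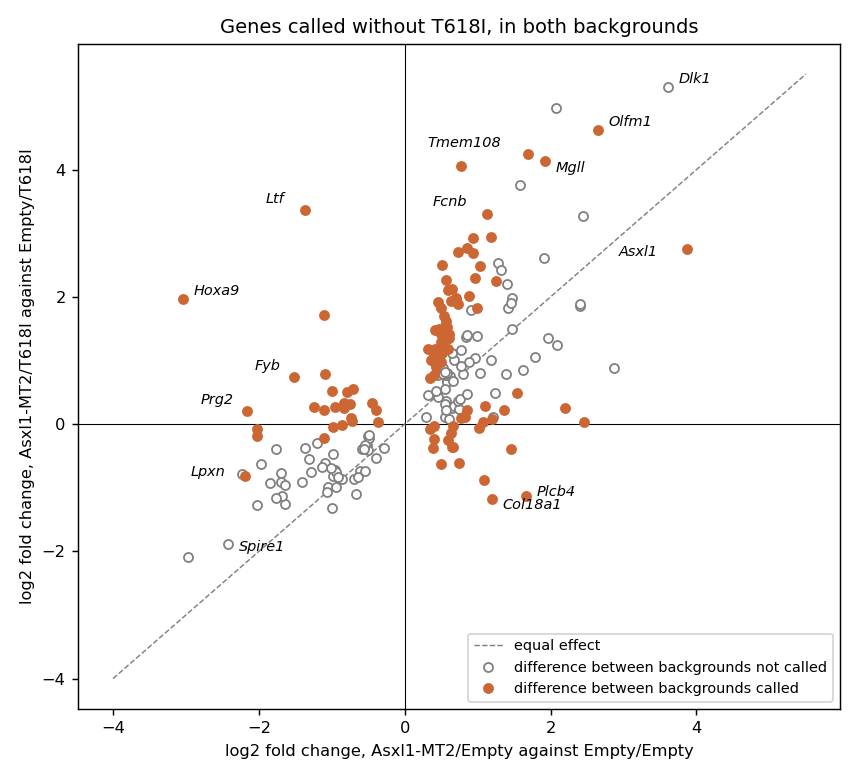
Log2 fold change with Asxl1-MT2 without T618I (x axis) and in T618I cells (y axis) for the 215 genes called without T618I, 1 point per gene. Filled points are the 106 genes whose effect differed between backgrounds at an adjusted p under 0.05, the dashed line marks equal effects, and Hoxa9, Ltf and Fyb lie in the upper left with opposite directions.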

How the data were processed

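RNA of 12 HoxB8 libraries in 4 groups of 3 was sequenced. The authors deposited raw counts per gene symbol, with 1 column per library. The build mm10 and the tools Trimmomatic, STAR and DESeq2 are named in the submitters' processing notes without version or role. The counting tool, annotation and strand setting are not given in the sources used here, so overlapping and antisense genes and near-identical copies are uncertain. Column names gave each library's group. No library was a copy of another: the mean chi-square per gene between libraries of a group was 3.34 to 14.1.

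Genes were filtered with filterByExpr, scaled by TMM and fitted over all 12 libraries with 4 group terms in edgeR 4.0.16 (R 4.3.3, limma 3.58.1), using glmQLFit and glmQLFTest, two-sided, with Benjamini-Hochberg adjustment over all 11578 genes. The groups share 1 estimate of the spread. The SE is the log2 fold change divided by the square root of F, and CPM use TMM library sizes. The effect in T618I cells and the difference between backgrounds are contrasts of the same fit. Alternatives were DESeq2 1.42.0, its size factors, other filters, the 6 libraries alone, a block by column letter and each library left out. The scripts were tested on simulated data.

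Genes named were Asxl1, Csf3r, Hoxb8 and Socs3, the 12 largest changes in each direction among called genes without overlap, the 6 most abundant called genes in each direction, all called members of the lists and at most 4 abundant uncalled ones per list. Some genes that this rule names are not reported here. The members and lists were chosen with earlier results of these data known. At totals of 9341984 to 10252291 counts per library, genes below 1 CPM rest on few reads, which limits the precision of their values.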

Additional observations from a re-analysis of the deposited data

Results flagged for a closer look

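For 106 of the 215 genes called in the comparison of truncated Asxl1 with empty vectors, the effect differed between cells without and with CSF3R T618I by a test of the difference itself (edgeR's interaction contrast, adjusted p under 0.05). Differences below are the log2 fold change with T618I minus that without it. The 215 genes were selected on the effect without T618I, which is part of this difference.

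Among genes lower without T618I, the difference was 5.00 for Hoxa9, 4.72 for Ltf, 2.36 for Prg2, 2.25 for Fyb, 1.95 for Itsn1, 1.89 for Slc2a3, 1.83 for 5730460C07Rik, 1.37 for Lpxn, 1.30 for Vim, 0.94 for Perp and 0.41 for Emb. Among genes higher without T618I, it was 2.22 for Mgll, 2.18 for Fcnb, 1.99 for Itgam, 1.98 for Olfm1 and Ly6c2, 1.48 for Pfkfb4, 1.46 for BC100530 and 1.06 for Ceacam1. It was 1.02 for Slc16a3, 0.75 for Stfa1, 0.70 for Hvcn1, 0.58 for Trem3, 0.46 for Clec12a and 0.38 for B4galt6.

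A smaller value with T618I was found for Snx7 (-2.42), Tmem9 (-1.93), Asxl1 itself (-1.11) and Egfl7 (-0.68). The level of the Asxl1 reads moves with these comparisons, at 1744 ± 79.8 CPM without and 1004 ± 83.7 CPM with T618I, and its part in the differences was not tested. Hoxb8 and Csf3r, not called without T618I, were called higher with Asxl1-MT2 in T618I cells. There Hoxb8 went from 291 ± 45.4 to 571 ± 13.5 CPM (difference 0.85, edgeR adjusted p = 0.000502). Csf3r went from 431 ± 39.3 to 1330 ± 361 CPM (difference 1.65, edgeR adjusted p = 0.000134). The part of these 2 genes was not tested either.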

How the results depend on the processing

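No gene was called in 1 direction in the comparison of truncated Asxl1 with empty vectors and in the other under an alternative. RLE size factors gave 209 calls, all among the 215, DESeq2 300 with 207 of them, and a filter of at least 1 CPM in 3 libraries kept the same genes as the main filter. A filter of at least 5 CPM in 3 libraries, chosen after seeing the data, gave 190 calls, 186 of them among the 215. Without a filter on low counts 215 genes were higher and 144 lower. Without the letter C libraries 228 were higher and 158 lower, of which 169 were among the 215, and the cause was not tested. With only the 6 libraries compared, 176 were higher and 111 lower. Leaving out 1 library at a time gave 39 to 175 higher and 21 to 101 lower genes, and the log2 fold change of Csf3r (-0.02) ran from -0.18 to 0.08 and changed sign without Empty/Empty A (0.08), Empty/Empty B (0.03) and Asxl1-MT2/Empty C (0.07). The counts in T618I cells and for the difference between backgrounds stayed within 1.5 times throughout.

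The replicate block by column letter gave 204 higher and 112 lower genes, of which 214 were among the 215. Deviations from the group means correlated between same-letter libraries of the 2 groups at 0.186 for A, -0.022 for B and 0.216 for C over 11578 genes, and 4 of 6 libraries correlated best with their own letter. The letters therefore do not pair the libraries by the threshold of 0.1 in each pair. Among named genes, the block ended only the call of Zfp711 (edgeR adjusted p = 0.0544). Depth limits the genes below 1 CPM. With only the 6 libraries B4galt6, Prdx1 and Tcf4 were not called, under RLE size factors Emb, and without a filter Prdx1. The filter at 5 CPM ended the calls of Tpst1 and Prg3, and leaving out the letter C libraries those of Epas1, Tmem9, Hoxa9, Zfp711, Dse, Tpst1, B4galt6, Prdx1, Ltf, Fn1 and Slc16a3 (edgeR adjusted p from 0.0502 to 0.142).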

Other observations

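Cholesterol synthesis genes leaned upwards without a call. In 10 of 24 tested genes all 3 Asxl1-MT2/Empty libraries lay above all 3 controls, and in 0 all below, against 8.82% and 7.06% of all tested genes. The list's median log2 fold change was 0.14. EdgeR and DESeq2 each called 0, and 7 were higher and 0 lower at an unadjusted p under 0.05, a threshold that 6.77% of all tested genes passed upwards and 4.14% downwards.

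Antigen presentation genes gave a similar picture. In 5 of 15 tested genes the Asxl1-MT2 libraries all lay above the controls, and in 0 below, with a median log2 fold change of 0.12. EdgeR called 0, DESeq2 called 1 higher, and 6 were higher and 0 lower at an unadjusted p under 0.05. The class I heavy chain gene H2-K1 was at 516 ± 19.6 against 607 ± 49 CPM, with the groups apart (edgeR adjusted p = 0.153). Its partner B2m was at 901 ± 86.5 against 1016 ± 46.7 CPM (edgeR adjusted p = 0.523).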
